A study of Mus musculus with 2 samples.

Results

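Fc receptors are the proteins through which immune cells read antibodies. The genes described here are the 7 Fc receptor genes Fcgr1, Fcgr2b, Fcgr3, Fcgr4, Fcer1g, Fcer1a and Fcgrt, of 32285 genes measured, chosen by symbol alone. They were followed in CD45+ cells sorted from subcutaneous MC38 tumors, a mouse colon carcinoma line, in WT mice. The Control library came from unirradiated tumors and the IR library from tumors that had received 20 Gy in one dose 4 days earlier. Each library pooled 4 tumors. There was 1 library per group, so every difference below compares 2 libraries, has no replicate check and carries no p-value. The sample records also name the sorted cells CD45+CD11b+Ly6Chi, but T, NK and stromal cells were present in both libraries, which goes against that narrower label.

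Receptors for IgG fall into activating and inhibitory kinds. FcγRI (Fcgr1), FcγRIII (Fcgr3) and FcγRIV (Fcgr4) are activating and reach the cell surface with the common γ chain (Fcer1g), whose ITAM motif recruits the kinase Syk. FcγRIIB (Fcgr2b) carries an inhibitory ITIM motif that recruits the phosphatase SHIP-1 (Inpp5d). Fcer1a encodes the IgE-binding chain of the high-affinity IgE receptor of basophils and mast cells. Fcgrt encodes FcRn, an MHC class I-like protein that pairs with β2-microglobulin (B2m) and rescues IgG and albumin from degradation. In tumors, macrophages and monocytes use the activating receptors to engulf antibody-coated cells.

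The genes lie at 3 places in the genome (GENCODE vM21 annotation, GRCm38). Fcgr2b, Fcgr4 and Fcgr3 are neighbours within 106.3 kb of chromosome 1, at chr1:170958617-170976547 on the minus strand, chr1:171018920-171029761 on the plus strand and chr1:171051174-171064935 on the minus strand. Fcer1g (chr1:171229572-171234365, minus strand) and Fcer1a (chr1:173221284-173227214, minus strand) follow on the same chromosome. Fcgr1 is at chr3:96282909-96293969 and Fcgrt at chr7:45092990-45103851, both on the minus strand. Fcgr2b and Fcgr3 are alike in sequence. Of the stretches of 50 bases in the last 500 bases of the Fcgr2b transcripts, 1.36% also occurred in Fcgr3, and none of those of the other 6 genes occurred in another gene. The reads of a 3′ library come from this end, so few of them could fit both genes. Annotated antisense genes overlap Fcgr2b (Gm38204) and Fcgrt (Gm45669), and whether counting used strand is not given in the sources used here.

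Upstream sequence is shown for 3 of the 7 genes. These are Fcgr1 and Fcgr4, for their difference between the libraries, and Fcer1a, for its restriction to basophils and mast cells. The other genes are not shown, among them Fcgrt, which also differed between the libraries and whose window held none of the motifs below. All 7 genes had a promoter window in the RefSeq table (GRCm38.p6). Capitals mark matches, on either strand, to TTCNNNGAA (the GAS motif), GAAANNGAAA (a doubled site bound by interferon regulatory factors) and GAGGAA (the core bound by PU.1). They also mark matches to AGATAA, a site bound by GATA factors. Bases inside an annotated exon are left out.
Fcgr1, chr3:96293970-96294089, minus strand: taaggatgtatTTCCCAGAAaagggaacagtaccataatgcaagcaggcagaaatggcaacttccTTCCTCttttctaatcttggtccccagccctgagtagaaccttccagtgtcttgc
Fcgr4, chr1:171018806-171018919, plus strand: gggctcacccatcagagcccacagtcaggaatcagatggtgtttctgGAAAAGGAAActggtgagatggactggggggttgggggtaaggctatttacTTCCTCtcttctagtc
Fcer1a, chr1:173227230-173227349, minus strand: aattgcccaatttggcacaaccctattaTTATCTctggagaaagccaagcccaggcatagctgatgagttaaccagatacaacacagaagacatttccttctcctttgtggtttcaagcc

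The GAS match of Fcgr1 lay at positions -109 to -101 from its start, and 8.3% of all 32851 promoter windows of the same length (250 bases before to 50 after the start) held this motif. The paired interferon motif of Fcgr4 lay at -73 to -64, against 3.44% of all windows. PU.1 core matches, that of Fcer1a upstream of the bases shown, were found for Fcgr1, Fcgr3, Fcgr4 and Fcer1a, against 28.3% of all windows. The GATA match of Fcer1a lay at -92 to -87, against 11.2%. Motifs were searched in the whole RefSeq windows, annotated exon bases included, and those of Fcgr2b, Fcer1g and Fcgrt held none of the 4. The stretch before the RefSeq start of Fcgr2b overlaps an annotated exon. These matches describe letters and say nothing about binding.

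After filtering, 4679 Control and 3410 IR barcodes remained, and 7 barcodes with at least 1000 UMIs were found in both libraries. Cells were placed in gates by their UMIs (counted RNA molecules) of lineage genes after thinning each to 1000 UMIs, and levels are CPM, a gene's UMIs summed over the cells of a gate and scaled to 1000000 UMIs of all genes in the gate. In brackets stand exact 95% counting intervals, which cover neither tumors nor libraries. The macrophage gate (C1qa, C1qb and C1qc over monocyte genes such as Ly6c2) held 1924 Control and 372 IR cells, and the monocyte gate 766 and 1142. The other gates used here held 27 and 41 (nonclassical monocyte), 26 and 202 (neutrophil), 28 and 50 (basophil), 7 and 14 (mast cell), 42 and 38 (conventional dendritic cell, cDC), 133 and 153 (mature DC), 280 and 435 (NK cell), 392 and 239 (T cell) and 81 and 71 cells (stromal). The nonclassical gate is named for Ace, Adgre4 and Treml4 alone, since Ly6c2, which is low in such monocytes, was at 923 CPM in Control and 990 CPM in IR there.

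**Figure D1:**
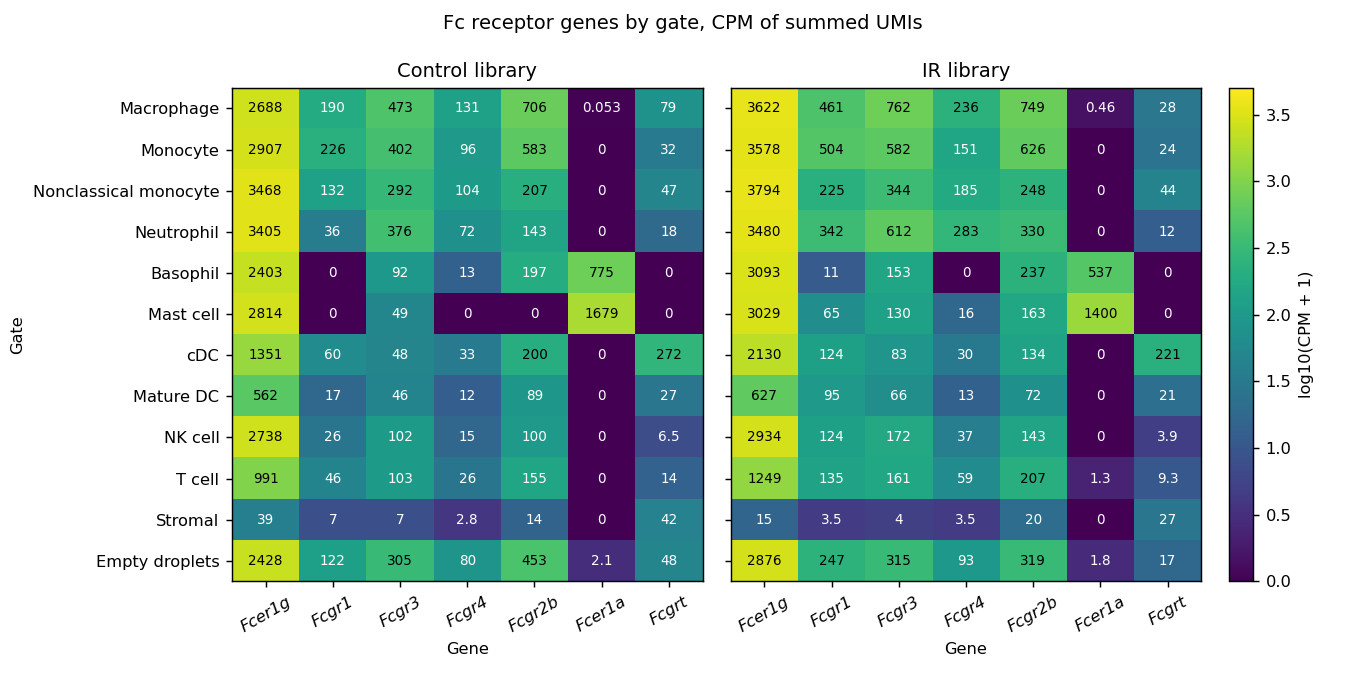
Levels of the 7 genes in 11 gates and in empty droplets, for the Control library (left) and the IR library (right). Numbers are CPM of summed UMIs and colour is log10(CPM + 1). Fcer1g is high in myeloid, NK, basophil and mast cells, Fcer1a almost only in basophils and mast cells, and Fcgrt is highest in cDC.

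Fcer1g, the shared signalling chain, was the most widely detected of the 7 genes. In Control it was at 3468 CPM in nonclassical monocytes [3122 to 3841], 3405 in neutrophils [2938 to 3926], 2907 in monocytes [2862 to 2953], 2738 in NK cells [2666 to 2812] and 2688 in macrophages [2664 to 2711]. Among gates with at least 20 cells in each library, the intervals of the first 3 of these overlapped from neighbour to neighbour, as did those of NK cells, macrophages and basophils (2403 CPM). cDC (1351 CPM), T cells (991 CPM), mature DC (562 CPM) and stromal cells (38.6 CPM) followed, each apart from the next. The 7 Control mast cells were at 2814 CPM [2131 to 3646]. In NK cells, where the γ chain pairs with FcγRIII and the NKp46 receptor, 90.7% of Control and 93.1% of IR cells held an Fcer1g UMI at 1000 UMIs per cell. The same share was 29.6% and 36.4% in T cells, which carried 1358 and 1423 CPM of the macrophage gene Lyz2, and 8.64% and 1.41% in stromal cells. Median depth was 5481 and 7136 UMIs in NK cells, 4716.5 and 6628 in T cells and 16736 and 28167 in stromal cells.

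The activating receptors had their highest levels in phagocytes. Fcgr1 was at 226 CPM in Control monocytes [213 to 239] and 190 CPM in Control macrophages [184 to 196], and the nonclassical gate (132 CPM) was not apart from macrophages. Fcgr3 was at 473 CPM in macrophages and 402 CPM in monocytes, and neutrophils (376 CPM) did not differ from monocytes beyond counting error. Fcgr4 was the lowest of the 3, at 131 CPM in macrophages, 104 CPM in the nonclassical gate and 95.5 CPM in monocytes, with overlapping neighbours. In IR, Fcgr4 was highest in neutrophils, at 283 CPM [250 to 319], next to macrophages at 236 CPM [222 to 251], and these intervals also overlapped. UMIs count molecules rather than fragments, so levels of different genes are not scaled by length here.

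Fcgr2b, the inhibitory receptor, was highest in macrophages (706 CPM in Control, 749 CPM in IR) and next in monocytes (583 and 626 CPM). Nonclassical monocytes (207 and 248 CPM), cDC (200 and 134 CPM) and basophils (197 and 237 CPM) formed a lower group with overlapping intervals in Control. The B cell gate, where FcγRIIB is the main Fc receptor, held 13 Control and 5 IR cells with 19 and 4 Fcgr2b UMIs, which is too few to place it.

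Fcer1a was found almost nowhere but in basophils and mast cells. Of its 106 Control UMIs, 59 were in basophils and 34 in mast cells. Of its 209 IR UMIs, 102 were in basophils and 86 in mast cells. These 2 gates thus held 87.7% and 90.0% of all Fcer1a UMIs in 35 Control and 64 IR cells. The level in basophils was 775 CPM in Control [589.7 to 999.2] and 537 CPM in IR [438 to 652], and in mast cells 1679 CPM [1163 to 2346] and 1400 CPM [1120 to 1729]. The macrophage gate held 1 Control and 2 IR Fcer1a UMIs, and the monocyte, neutrophil and cDC gates held none. Taking 3 counts as the limit of a count of 0, the monocyte gate allows a level of up to 0.560 CPM in Control and 0.261 CPM in IR. The basophil gate used 6 genes (Mcpt8, Cd200r3, Cyp11a1, Gata2, Cpa3 and Il4). Of its cells, 25 of 28 and 48 of 50 held a UMI of Mcpt8 or Cd200r3 at full depth, and none held a Tpsb2 UMI.

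Fcgrt had another distribution. It was highest in cDC, at 272 CPM in Control [219 to 334] and 221 CPM in IR [179 to 270], apart from every other gate with at least 20 cells in each library. The plasmacytoid DC gate, with 8 Control and 7 IR cells, held 12 and 1 Fcgrt UMIs, and its Control level of 236 CPM [122 to 411] overlapped that of cDC. Macrophages came next in Control at 78.6 CPM [74.7 to 82.7], not apart from the nonclassical gate at 47.1 CPM [15.3 to 110]. In NK cells Fcgrt was at 6.50 and 3.90 CPM, and basophils and mast cells held no Fcgrt UMI.

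The comparison of IR with Control asked how irradiation changed these receptors. A gene was counted as different when its ratio of CPM plus 10 was at least 2-fold, among genes with at least 50 CPM in 1 library. In macrophages, 1 of 6 members counted was past this limit upward (Fcgr1), against 2.52% of all genes, and 1 downward (Fcgrt), against 0.987%. In monocytes Fcgr1 was the 1 of 5 past it upward, against 1.79%. Fcer1a was under 50 CPM in both gates, as was Fcgrt in monocytes.

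Fcgr1 had the largest difference among the activating receptors. In macrophages it was at 190 CPM in Control and 461 CPM in IR [441 to 482], which is 2.43-fold or 1.28 on the log2 scale [1.20 to 1.36]. In monocytes it was at 226 CPM and 504 CPM [491 to 517], 2.23-fold [2.10 to 2.37]. Fcgr4 was at 131 CPM and 236 CPM in macrophages, 1.80-fold [1.67 to 1.93], and at 95.5 CPM and 151 CPM in monocytes, 1.58-fold [1.43 to 1.75]. Fcgr3 was at 473 CPM and 762 CPM in macrophages, 1.61-fold [1.55 to 1.68], and at 402 CPM and 582 CPM in monocytes, 1.45-fold [1.38 to 1.52]. Fcer1g was at 2688 CPM and 3622 CPM in macrophages, 1.35-fold [1.32 to 1.37], and at 2907 CPM and 3579 CPM in monocytes, 1.23-fold [1.21 to 1.25]. All 4 genes of the activating arm were thus higher in IR in both gates, by different amounts and beyond counting error.

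Fcgr2b differed by little. It was at 706 CPM in Control and 749 CPM in IR in macrophages, 1.06-fold [1.02 to 1.10], and at 583 CPM and 626 CPM in monocytes, 1.07-fold [1.03 to 1.12]. Over all monocyte and macrophage class cells (2975 Control and 1653 IR cells, cells tied between both gates included) it was at 670 CPM and 668 CPM, a ratio of 0.998 [0.975 to 1.02]. Without the interferon-induced monocyte genes in the gate the log2 ratio in macrophages was -0.00062, so no direction is given for Fcgr2b in macrophages. Over all barcodes Fcgr2b was lower in IR, at 401 CPM against 498 CPM, where macrophages made up 10.9% of cells against 41.1%.

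Fcgrt was the only member lower in IR in macrophages. It was at 78.6 CPM in Control and 28.4 CPM in IR [23.6 to 33.8], a ratio of 0.361 [0.298 to 0.434] or -1.47 on the log2 scale. In monocytes it was at 31.7 CPM [27.1 to 36.9] and 24.5 CPM [21.7 to 27.5], a ratio of 0.773 [0.636 to 0.940]. In cDC the ratio was 0.813 [0.604 to 1.10], which includes no difference. Its partner B2m was higher in IR, at 3524 and 5225 CPM in macrophages and 3325 and 4531 CPM in monocytes.

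**Figure D2:**
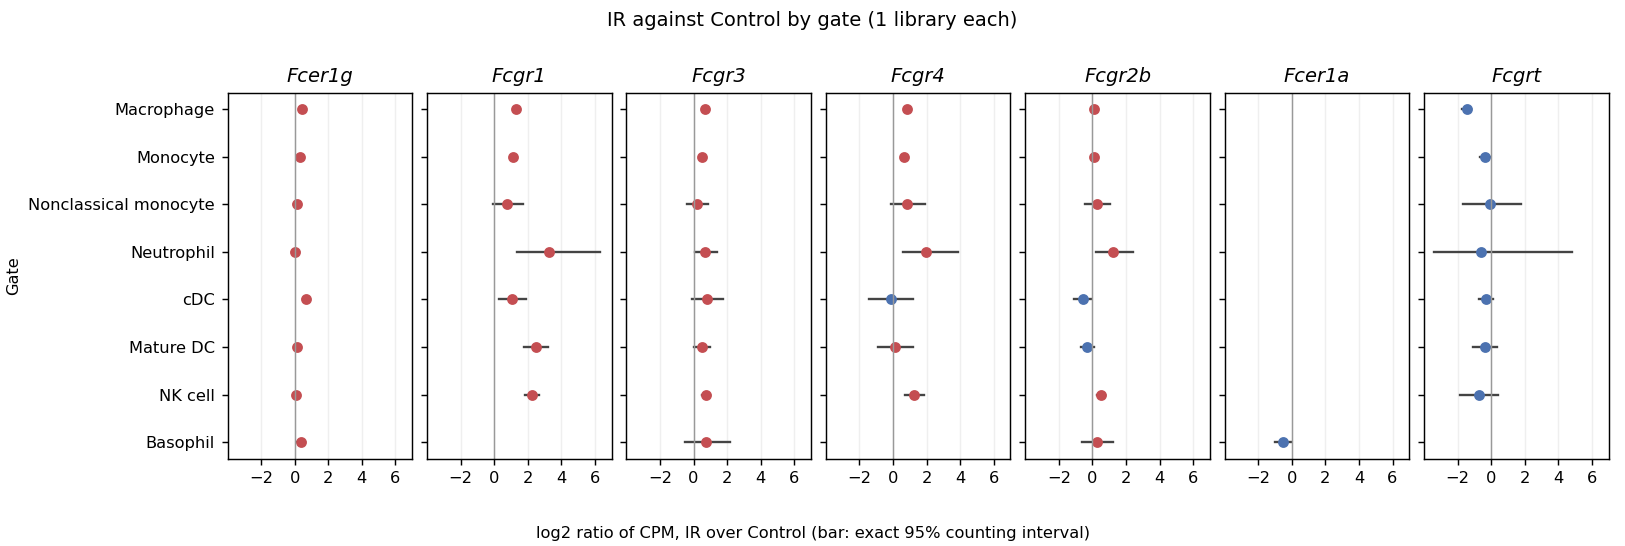
Log2 ratio of CPM, IR over Control, of each gene (panels) in 8 gates (rows), with exact 95% counting intervals. Genes with no UMI in 1 library or under 10 UMIs in both together are not drawn. Fcgr1 lies to the right of 0 in the 7 gates drawn, Fcgr2b lies near 0 in macrophages and monocytes, and Fcgrt lies furthest to the left in macrophages.

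In neutrophils 3 of 5 members counted were past the 2-fold limit upward, against 12.2% of all genes, in 26 Control and 202 IR cells. Fcgr1 had 2 Control and 319 IR UMIs, or 35.8 CPM [4.34 to 129] and 342 CPM [306 to 382]. Fcgr4 had 4 and 264 UMIs (71.7 and 283 CPM) and Fcgr2b 8 and 308 UMIs (143 and 330 CPM). Fcgr3 was at 376 and 612 CPM, 1.63-fold [1.05 to 2.65]. Fcer1g was at 3405 and 3480 CPM, 1.02-fold [0.883 to 1.19]. The Control neutrophils had a median of 1760.5 UMIs against 2689.5 in IR, and their Lyz2 level was 3997 CPM against 4114 CPM. Other markers in this gate differed between the libraries. Ly6c2 was at 484 and 1226 CPM and the 6 monocyte genes together at 2545 and 4188 CPM, while Retnlg was at 3190 and 1044 CPM and the 5 neutrophil gate genes together at 10700 and 7056 CPM. Their part in the receptor levels was not tested. The ratio of Fcgr1 spanned 1.0 to 5.23 on the log2 scale over the other settings in which it could be formed. With 1 more UMI per gate it could not, since a library then held no Fcgr1 UMI in this gate. That of Fcgr2b (1.20) was under 2-fold in 4 of them, at 0.67 with at least 2000 UMIs per barcode, 0.50 without a mitochondrial limit, 0.26 with gates on all UMIs and 0.99 as a mean over cells. At 1000 UMIs per cell, Fcgr1 was seen in 8.91% of IR neutrophils, Fcgr2b in 13.9%, Fcgr4 in 21.3% and Fcgr3 in 44.1%, while Fcgr1 was seen in 34.9% of IR monocytes.

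Nonclassical monocytes had no member past the limit, against 7.26% of all genes upward, and the ratio intervals of all 5 members counted included 1. Fcgr1 was at 132 CPM [72.1 to 221] and 225 CPM [172 to 290] there, and Fcgr4 at 104 CPM [51.7 to 185] and 185 CPM [137 to 244]. The direction of Fcgr4 turned in 4 of the other settings tried. In mature DC 1 of 4 members was past the limit upward, Fcgr1 (17.1 and 95 CPM), against 2.36% of all genes. In NK cells 1 of 4 was, again Fcgr1 (26.0 and 124 CPM), against 2.05%. In T cells 1 of 5 was, also Fcgr1 (46.3 and 135 CPM, 2.92-fold [2.35 to 3.63]), against 2.69%. Fcgr3, the FcγRIII of NK cells, was at 102 and 172 CPM in the NK gate, 1.68-fold [1.44 to 1.97]. In T cells Fcgr3 was at 103 and 161 CPM, 1.57-fold [1.33 to 1.84], with intervals overlapping those of NK cells in both libraries. Fcer1g was at 2738 and 2934 CPM in NK cells, 1.07-fold [1.04 to 1.11]. Basophils had Fcer1g at 2403 and 3093 CPM, 1.29-fold [1.09 to 1.53], while the ratio of Fcer1a was 0.694 [0.499 to 0.973].

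Free RNA from broken cells adds UMIs to every droplet, and it carried these receptors. Barcodes under 100 UMIs held Fcgr1 at 122 CPM in Control and 247 CPM in IR, Fcgr2b at 453 and 319 CPM and Fcgrt at 47.9 and 16.5 CPM. They held 2.20 Fcgr1 UMIs per 100 Lyz2 UMIs in Control and 5.53 in IR. NK cells were at 3.21 and 8.94 and T cells at 3.41 and 9.49 on this scale, and mature DC at 2.60 and 23.4. For Fcgr3, NK cells were at 12.6 and 12.4 per 100 Lyz2 UMIs against 5.51 and 7.05 in empty droplets. T cells were at 7.55 and 11.3 for this gene. For Fcgr4, IR neutrophils were at 6.88 against 2.08 in empty droplets. Free RNA was estimated from the C1q genes at 8.56% of NK cell UMIs in Control and 20.4% in IR. The same estimate was 22.9% and 27.5% in neutrophils and 3.66% and 14.2% in basophils. In macrophages and monocytes the T cell and NK cell genes were used for it. This gave 14.8% and 6.66% in macrophages and 12.7% and 9.56% in monocytes. The gates themselves limit the UMIs of these genes in a cell, so each estimate may be too low. Subtraction by it therefore cannot show how much free RNA remains. With free RNA subtracted, the log2 ratio of Fcgr1 was 2.44 in NK cells, 1.24 in macrophages and 1.14 in monocytes, each inside the interval of the unsubtracted value. In NK cells the C1q genes were together at 368 and 310 CPM. Lyz2 was at 810 and 1384 CPM there and the 6 monocyte genes together at 1382 and 2048 CPM. A subtraction scaled by C1q cannot tell how much of such monocyte RNA remains, and its part in the Fcgr1 of NK cells was not tested. For T cells free RNA was not estimated. In mature DC, Lyz2 itself was at 657 and 405 CPM, while Ly6c2 was at 63.2 and 256 CPM and the 6 monocyte genes together at 388 and 915 CPM. The part of such monocyte RNA in the Fcgr1 of mature DC was not tested.

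The balance of the IgG receptors differed between the libraries. Fcgr2b made up 47.1% of the summed UMIs of Fcgr1, Fcgr2b, Fcgr3 and Fcgr4 in Control macrophages [46.5% to 47.7%] and 33.9% in IR macrophages [33% to 34.9%]. In monocytes the share was 44.7% [43.5% to 45.8%] and 33.6% [33% to 34.3%]. Activating UMIs per Fcgr2b UMI were thus 1.12 and 1.95 in macrophages and 1.24 and 1.97 in monocytes. The share was also lower in IR in cDC (58.8% and 36.0%), mature DC (54.2% and 29.2%) and NK cells (41.1% and 30%), each beyond its interval. In T cells it was 47.0% and 36.85%. The cDC gate also differed in other genes, with the C1q genes together at 242 and 25.3 CPM. Xcr1 was at 111 and 39.1 CPM there and Cd209a at 807 and 1404.5 CPM. Of cDC, 24 of 42 in Control and 23 of 38 in IR were at the minimum of 2 UMIs. The part of these differences in the share was not tested. Neutrophils had a low share in both libraries, 22.9% [10.4% to 40.1%] and 21.1% [19.0% to 23.2%], and so did nonclassical monocytes, 28.2% and 24.7%. Basophils were at 65.2% in Control, with an interval of 42.7% to 83.6% that overlaps that of cDC, and at 59.2% in IR. Empty droplets were at 47.2% and 32.8%, close to the macrophage values, and so also lower in IR. The 6 monocyte genes together were at 1382 and 2048 CPM in NK cells, 1405 and 2769 CPM in T cells and 388 and 915 CPM in mature DC. The part of monocyte or free RNA in the share of these gates was not tested.

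**Figure D3:**
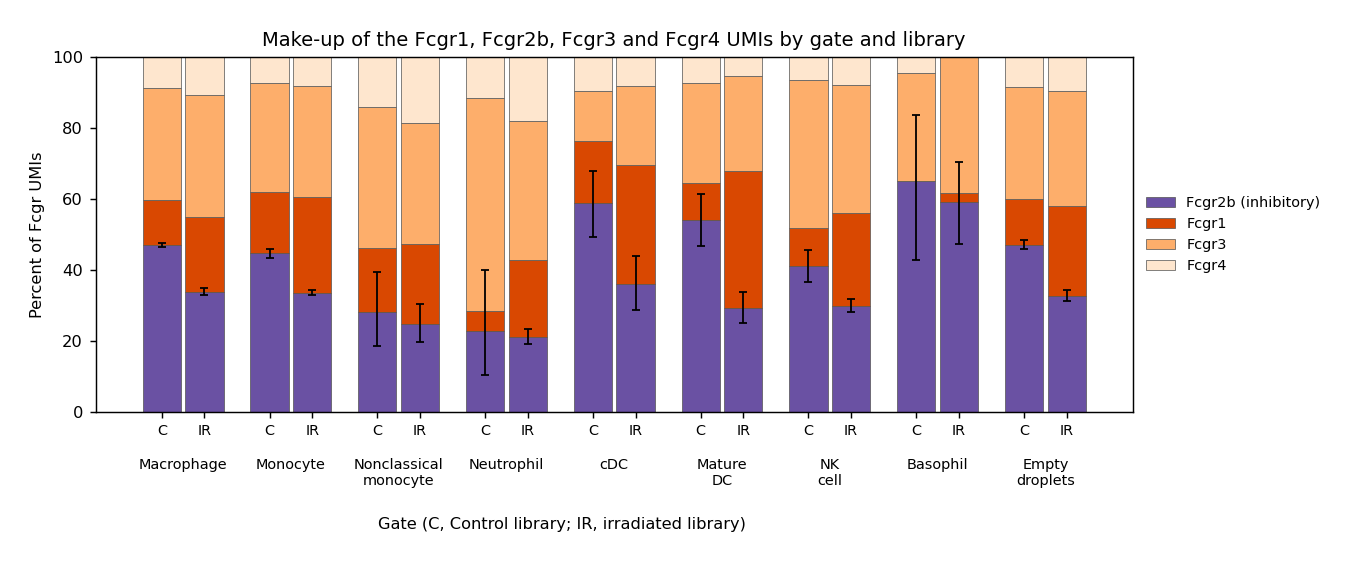
Share of each Fcgr gene among the summed UMIs of Fcgr1, Fcgr2b, Fcgr3 and Fcgr4 (percent), for 8 gates and empty droplets in the Control (C) and IR libraries. Black bars are exact 95% intervals of the Fcgr2b share. The Fcgr2b part shrinks from 47.1% to 33.9% in macrophages, where the Fcgr1 part goes from 12.7% to 20.9%.

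The balance was also described within single cells, from the same UMIs, so these shares are not independent of it. At 2000 UMIs per cell, 55.1% of Control and 61.3% of IR macrophages held UMIs of both Fcgr2b and an activating Fcgr gene. Fcgr2b alone was held by 15.9% of Control macrophages [14.2% to 17.6%] against 8.96% of IR macrophages [6.17% to 12%]. The shares with activating genes alone were 19.0% [17.2% to 20.9%] and 24.9% [20.4% to 29.8%]. In monocytes, Fcgr2b alone was found in 12.7% [10.3% to 15.4%] and 8.82% [7.20% to 10.7%], intervals that overlap slightly. In IR neutrophils activating genes alone were the most frequent state, at 59.6% of 151 cells, against 23.8% with both. These shares left out 133 Control and 26 IR macrophages, 79 and 65 monocytes and 51 IR neutrophils with fewer UMIs.

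Monocytes and macrophages form a range, so the class cells were also placed in 5 bins by the C1q share of their monocyte-gene and C1q UMIs. Those with fewer than 3 such UMIs, 642 in Control and 364 in IR, were left out. Fcgr1 was higher in IR in every bin, by 1.94-fold in the lowest bin, 3.26-fold, 2.70-fold and 3.46-fold in the next 3 and 2.09-fold in the highest. Fcgr2b was at 511 CPM in the lowest and 729 CPM in the highest Control bin, and at 610 and 804 CPM in IR. Fcgr4 was at 92.0 and 137 CPM in these bins in Control and at 143 and 250 CPM in IR, and Fcgr3 at 416 and 493 CPM in Control and at 594 and 812 CPM in IR. Fcgrt was at 30.7 CPM in the lowest and 89.7 CPM in the highest Control bin, while in IR it was at 24.6 and 35.0 CPM. The IR to Control ratio of Fcgrt was 0.80 in the lowest bin and 0.390 in the highest. The interferon gene Isg15 was at 232 and 69.8 CPM in the lowest and highest Control bins and at 1077 and 449 CPM in the IR bins. Some of the monocyte genes that set the bins are interferon-induced, so the bins are not independent of Isg15. They were not redone without those genes, and a bin need not hold like cells in both libraries.

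**Figure D4:**
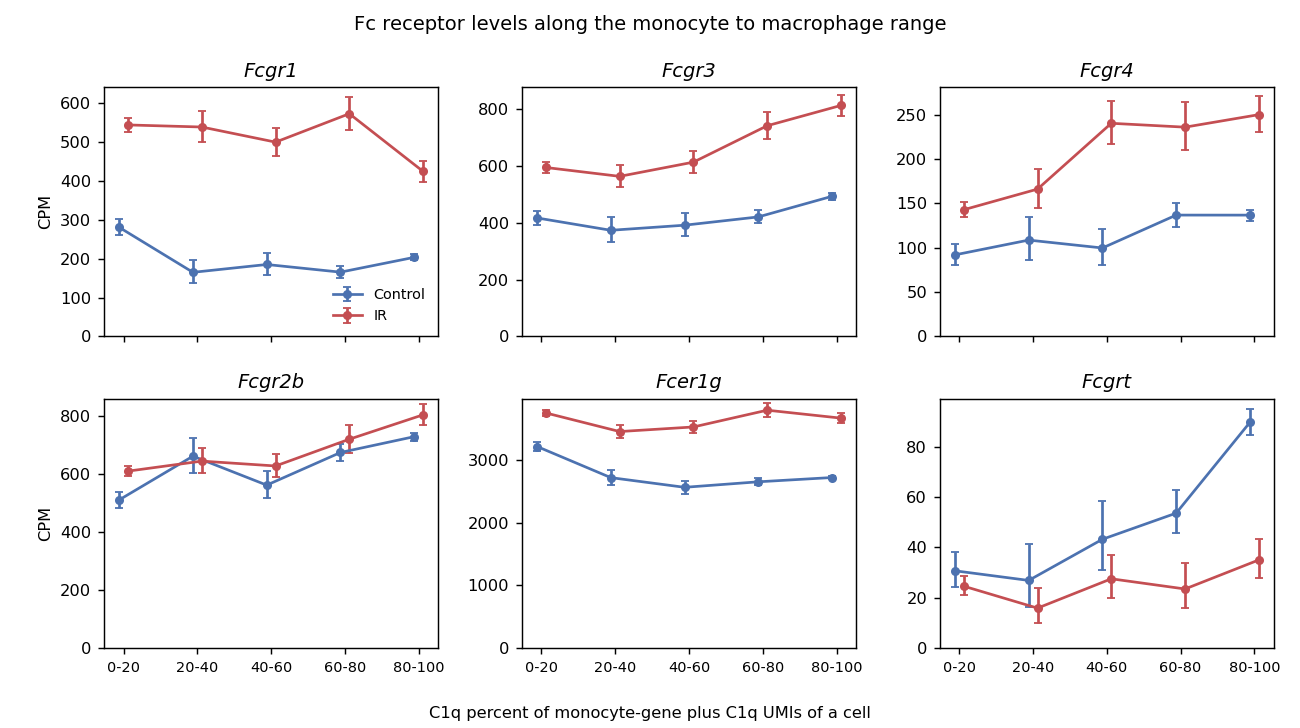
Levels (CPM) of 6 genes in monocyte and macrophage class cells, in 5 bins of the C1q percent of a cell's monocyte-gene and C1q UMIs, for Control (blue) and IR (red). Bars are exact 95% counting intervals. Fcgr1, Fcgr3 and Fcer1g are higher in IR in every bin, and Fcgrt is at 89.7 CPM in the highest Control bin against 35.0 CPM in IR.

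Subsets of these class cells, defined by at least 2 UMIs of small gene sets, differed among themselves. Cells with Lyve1, Folr2, Cbr2, Cd163 or Mrc1 UMIs, genes of resident-like macrophages, had Fcgrt at 272 CPM in Control [251 to 294] and 89.3 CPM in IR [58.3 to 131]. Class cells outside this subset were at 44.1 and 23.5 CPM. The subset was 313 of 2975 Control and 36 of 1653 IR class cells, and Fcgrt was lower in IR both inside and outside it. Cells with Mmp12 or Mmp13 UMIs had low Fcgrt (28.8 and 9.93 CPM) and a high Fcgr2b share (53.4% and 38.7%). Cells with Clec5a or Gpr84 UMIs had Fcgr1 at 216 CPM in Control against 638 CPM in IR. Their Fcgr2b was at 789 and 941 CPM. Cycling cells had Fcgr1 at 166 and 257 CPM, and their Fcgr4 was at 101 CPM [91.1 to 111] and 74.2 CPM [54.1 to 99.3]. Cells with Dcstamp or Ccl17 UMIs had the lowest Fcgr1 in both libraries (119 and 211 CPM) and the highest Fcgr2b share (56.2% and 43.4%). Their Fcgr1 interval overlapped that of Mmp12 or Mmp13 cells in Control and that of cycling cells in IR. In each of the 5 subsets Fcgr1 was higher and the Fcgr2b share lower in IR. A cell could be in several subsets, so these are not separate groups.

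**Figure D5:**
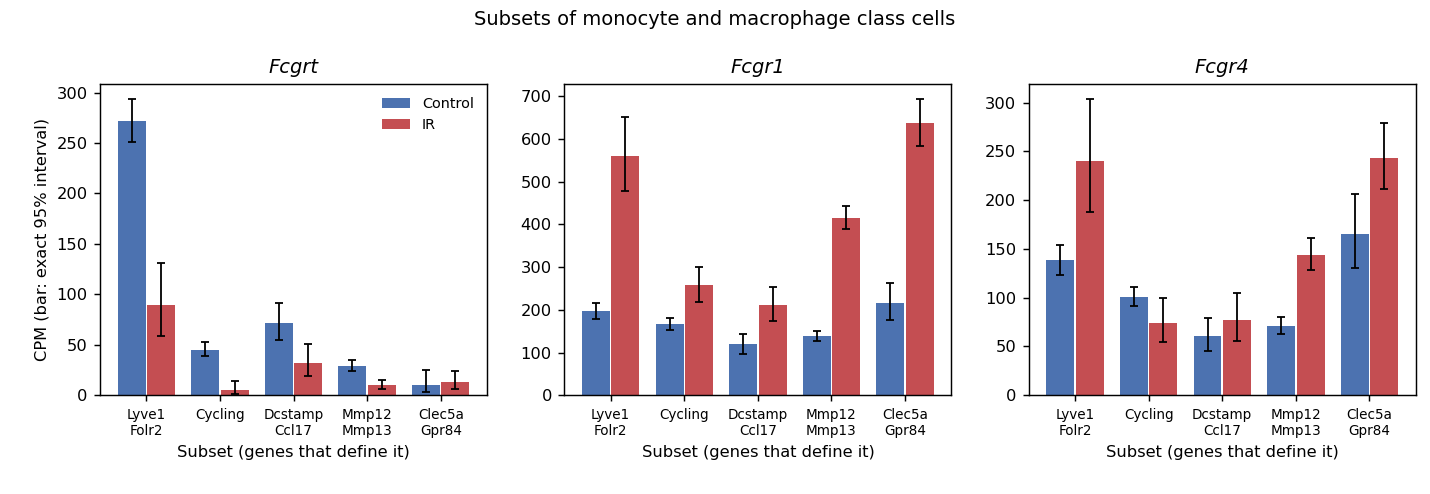
Levels (CPM, bars from 0) of Fcgrt, Fcgr1 and Fcgr4 in 5 subsets of monocyte and macrophage class cells in Control (blue) and IR (red), with exact 95% counting intervals. Fcgrt is highest in Lyve1 Folr2 cells (272 and 89.3 CPM), and Fcgr1 is higher in IR in all 5 subsets.

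Other genes of the pathway were described from fixed lists. Of 7 receptors that also signal through the γ chain, 5 were counted in macrophages. Their median log2 ratio was 1.10 against -0.04 for all genes counted. Past the 2-fold limit upward were 3 of them, against 2.52% of all genes. These were the C-type lectins Clec4d (130 and 361 CPM), Clec4n or Dectin-2 (502 and 1153 CPM) and Clec4e or Mincle (117 and 263 CPM). In monocytes 0 of 5 were past it, with a median of 0.71 against -0.01. Of 20 proximal kinases and adaptors, 14 were counted in macrophages and 0 were past the limit either way (median 0.06). The kinase Syk was at 92.8 and 102 CPM. Of 10 genes of the inhibitory arm, 7 were counted and 0 were past the limit (median 0.29), among them Inpp5d at 139 and 128 CPM. Of the sibling adaptors, Tyrobp (DAP12) was at 2014 and 2599 CPM. Of 10 other Fc-binding proteins only Lgals3 (galectin-3) was counted, at 2795 and 3757 CPM.

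Of 10 regulators, 7 were counted in macrophages and 0 were past the limit (median 0.14). Spi1, which encodes PU.1, was at 336 and 458 CPM and Irf1 at 112 and 149 CPM. Of 12 interferon genes, 11 were counted. In macrophages 10 were past the limit upward (median 1.69), against 2.52% of all genes. In monocytes 10 of 11 were (median 1.77), against 1.79%. Irf7 was at 50 and 385 CPM and Isg15 at 75.9 and 527 CPM in macrophages. Neutrophil RNA also differed in this gate, with S100a8 at 21.0 and 111 CPM and the 5 neutrophil gate genes together at 15.2 and 57.4 CPM, none of them at 0. Without cells holding a UMI of these genes, S100a8 or S100a9, a selection added after seeing the data, the log2 ratio in macrophages was 1.39 for Fcgr1 and 1.08 for Fcgr4. In monocytes it was 1.23 and 0.49, against 1.16 and 0.66 with all cells. Among the ligands, Ighg1, Ighg2b and Ighg2c had no UMI in macrophages and Ighm was at 36.0 and 7.10 CPM.

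The genes most like each member were taken over 17 gate and library populations of at least 30 cells, among 5448 genes, by Pearson's r of log2(CPM + 10). These populations share 2 libraries, so r is a description. Fcer1g was most like Tyrobp (r = 0.988). Fcgr1 was most like Ms4a6d (r = 0.969) and Casp1, Fcgr4 like Cd300ld (r = 0.972) and Pilra, Fcgr3 like Adssl1 (r = 0.965) and Itgam, and Fcgr2b like Ctsc (r = 0.956) and Adssl1. Among the members, Fcgr2b and Fcgr3 (r = 0.937) and Fcgr1 and Fcgr4 (r = 0.931) were the closest pairs. Fcgrt was most like Snx3 (r = 0.909), with Ciita, the MHC class II regulator, also among its 5 nearest (r = 0.871), and its r with the other members lay between -0.40 and 0.14. Fcer1a was most like Slc18a2 and Ms4a2, the β chain of the same receptor, but only 1 of the 17 populations, IR basophils, was a basophil or mast cell one.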

How the data were processed

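CD45+ cells of 1 Control and 1 IR library were profiled with 10x Chromium 3′ v3.1 chemistry. The authors deposited unfiltered raw UMI counts per gene and barcode. Per the labels they were made with Cell Ranger 6.0.1 on mm10, while the matrix headers name Cell Ranger 4. Total counts were 48593879 (Control) and 42406461 (IR) UMIs over 1067746 and 990007 barcodes.

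Barcodes with at least 1000 UMIs, at least 200 genes and at most 25% mitochondrial UMIs were kept. DoubletFinder, named by the study, was not used. Doublets were treated through the gates, since cells that passed more than 1 gate (233 and 166), were tied between monocyte and macrophage genes (285 and 139) or passed none (434 and 336) were kept apart. A gate needed at least 2 UMIs of its genes in a cell thinned to 1000 UMIs and, outside the monocyte and macrophage class, at most 2 C1q UMIs. Of class cells, 670 and 370 lay within 1 UMI of the monocyte and macrophage limit. Mmp9 was dropped from the neutrophil genes, and mast cells (at least 10 UMIs of Tpsb2, Tpsab1, Cma1, Kit and Mcpt4) were split from basophils and both cDC types pooled, after seeing the data.

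Counts were summed per gate (Python 3.11.15, scipy 1.17.1) and given as CPM with exact Poisson intervals, exact conditional intervals of ratios and Clopper-Pearson intervals of shares. All are 95% intervals for counting error only. No test was possible, since each group was a single library. The 2-fold rule was tried on simulated data and recovered 200 of 200 genes changed 3-fold in macrophages, with 0 unchanged genes called. This checks the working of the rule only, since the planted change was above its limit. It cannot show how often libraries differ by 2-fold without irradiation. All 7 members were named in every gate, and the 5 genes most like each were ranked. Members, lists and gates were chosen with earlier results of these data known. The alternatives concerned the barcode, mitochondrial, doublet (Scrublet in scanpy 1.11.5), gate and depth choices, TMM scaling (edgeR 4.0.16), the mean over cells, free RNA, the pseudocount and the low-count filter. Gene positions are from GENCODE vM21 and promoters from RefSeq, both on GRCm38.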

Additional observations from a re-analysis of the deposited data

Results flagged for a closer look

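Empty droplets (barcodes under 100 UMIs), which enter none of the gates, held Fcgr1 at 247 CPM in IR against 122 CPM in Control, Fcgr4 at 92.7 CPM against 80 CPM and Fcer1g at 2876 CPM against 2428 CPM. Fcgr2b had opposite directions in 2 gates, with a log2 ratio of 0.51 in NK cells and -0.58 in cDC [-1.12 to -0.06], IR over Control, and the cDC levels had overlapping intervals. Per 100 Lyz2 UMIs it was at 12.3 and 10.3 in NK cells, where free RNA was estimated at 8.56% and 20.4% of UMIs. In cDC the C1q genes were together at 242 and 25.3 CPM, Xcr1 at 111 and 39.1 CPM and Cd209a at 807 and 1404.5 CPM. The part of these in the Fcgr2b ratio of cDC was not tested. Fcer1g likewise had a log2 ratio of 0.66 in cDC and -1.36 in stromal cells, where 55 Control and 30 IR UMIs were counted. With 1 library per group, these differences between gates were not tested.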

How the results depend on the processing

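A value was counted as not moved when it lay within the counting interval of the reported value. The numbers of genes past the 2-fold limit had a wider rule and were all counted as not moved. In macrophages this number was 103, and 133 with a pseudocount of 1 CPM, 150 with at least 20 UMIs over both libraries and 108 with TMM scaling. In monocytes it was 67, and 83, 86 and 76. Of 190 alternative values of the main results, 147 were counted as not moved, 42 as moved and 1 changed sign. Of 133 others, 120 were counted as not moved and 13 as moved. Among these, directions turned in nonclassical monocytes, where Fcgr4 (0.83) was at -0.3821 without the mitochondrial limit, -0.2583 without the highest Scrublet scores, -0.1074 with gates on all UMIs and -0.04198 with at least 2000 UMIs. Fcgr3 there was at -0.001337 with at least 2000 UMIs and Fcgr2b at -0.1241 as a mean over cells. Each value below is a log2 ratio, IR over Control, unless a percent is given, and the cause of each move was not tested. With at least 2000 UMIs per barcode, macrophages had Fcgr1 at 1.165 and Fcer1g at 0.3995, and the Fcgr2b share of IR monocytes was 32.68%. Without the mitochondrial limit, Fcgr3 was at 0.6255 and Fcer1g at 0.3999 in macrophages, and Fcgr1 at 1.247 and Fcer1g at 0.3476 in monocytes. Without the highest Scrublet scores, macrophages had Fcgr1 at 1.187, Fcgr2b at 0.004498, Fcgr3 at 0.616 and Fcer1g at 0.3999. Monocytes then had Fcgr1 at 1.297 and Fcgr2b at 0.007847, with Fcgr2b shares of 46.03% (Control) and 32.55% (IR). With gates on all UMIs, macrophages had Fcgr1 at 1.186, Fcgr3 at 0.6048 and Fcer1g at 0.3882. Monocytes then had Fcgr1 at 1.415, Fcgr4 at 0.8179 and Fcer1g at 0.4245, with a Control Fcgr2b share of 47.06%. With 1 more UMI per gate, Fcer1g was at 0.4642 and 0.2471 in macrophages and monocytes, and Fcgr2b shares were 32.63% in IR macrophages and 41.85% and 32.51% in Control and IR monocytes. With monocyte genes that interferon does not induce, macrophages had Fcgr1 at 1.393, Fcgr3 at 0.5822 and Fcgr2b reversed, at -0.0006229. Fcgr2b was then at 0.004709 in monocytes, and its share was 32.91% in IR macrophages and 46.18% in Control monocytes. Without cells holding neutrophil UMIs, chosen after seeing the data, macrophages had Fcgr1 at 1.394, Fcgr4 at 1.075, Fcgr3 at 0.7897 and Fcer1g at 0.4715, and monocytes Fcgr4 at 0.4874 and Fcer1g at 0.3538. TMM scaling gave Fcer1g at 0.4741 and 0.3562, and the mean over cells gave Fcgr4 at 0.9582 and 0.4792, in macrophages and monocytes. TMM moved all genes by 0.39 in neutrophils, 0.14 in nonclassical monocytes and 0.13 in basophils. Over the alternatives, Fcgrt lay between -1.643 and -1.371 in macrophages and between -0.5821 and -0.1687 in monocytes. In neutrophils, Fcgr4 lay between 1.159 and 3.775 and Fcgr2b between 0.2588 and 2.73, with 26 Control cells. No paired analysis was possible because Control and IR each had a single library.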
